A study of Mus musculus with 9 samples.

Results

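The blood clotting cascade and the complement system are chains of plasma proteases, cofactors and inhibitors, most of which hepatocytes make and secrete. The genes described here are 39 named members of these chains, chosen by name from their known roles, with earlier results of these data known. Of them, 36 had a probe set of their own among the 18193 genes named on the arrays. C4b shared its only probe set with C4a and is described apart, and C3 and Cpb2 are not analysed here. In clotting, contact factors and tissue factor start a series of cleavages that ends with thrombin turning fibrinogen into fibrin, which plasmin later dissolves. In complement, the C1 complex or mannose-binding lectins start the cleavage of C4, C2 and C3, and the chain ends in a pore built from C5b, C6, C7, C8 and C9. Several of these genes belong to the liver's acute phase response, in which interleukin-6 raises their transcription during inflammation.

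The samples were livers of KKAy mice, which become obese and diabetic, at 8 weeks of age, on a chow with 34% fat as the labels of all arrays but BI replicate 2 give it. Mice of the BI group were injected into the abdomen with 100 µL of DMEM culture medium holding 40 µg/mL insulin, 11% of which was in the biomineralized form. Mice of the insulin group received the same volume with 40 µg/mL of plain insulin. The untreated group is labelled as having had no treatment, while the protocol text describes a control injected with DMEM alone; whether both descriptions mean the same mice is not stated. Each group had 3 arrays, each of 1 animal or of a pool (not stated), so p-values rest on the spread between these arrays, moderated over all probe sets. All groups were KKAy mice, no non-diabetic liver was analysed here, and the growth text of BI replicate 2 speaks of rats.

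The measure is the deposited log2 signal of a 3′ expression array, taken for each gene from its brightest probe set by mean signal. Array medians lay between 6.11 and 6.30, and the correlation between any 2 arrays lay between 0.909 and 0.921 over probe sets. The difference between 3′ and 5′ Gapdh control signals, a sign of RNA integrity, ran from 0.26 to 0.65 and was highest on untreated replicate 3. Hepatocyte markers identified the tissue: the summed signal of the 9 measured markers (of 10 listed) was 17.93 to 18.14 on BI arrays, 17.95 to 18.06 on insulin arrays and 17.92 to 18.18 on untreated arrays on the log2 scale. In whole liver, fewer cells of a type and less RNA per cell cannot be told apart.

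No clotting or complement gene passed the test in any comparison, and the measured levels of nearly all of them were close in the 3 groups. For the 35 genes other than C5ar1, the largest gap between group means was between 0.02 and 0.39, with a median of 0.14. Their 9 arrays spanned a median range of 0.41, and the widest was that of Klkb1 at 1.03, or 2.05-fold. The range was 0.22 for F2 (prothrombin), 0.25 for Plg (plasminogen) and 0.26 for Fgb (fibrinogen beta chain). The plot of all signals shows this flatness, with C5ar1 the sole gene near the bottom of the scale.

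**Figure D1:**
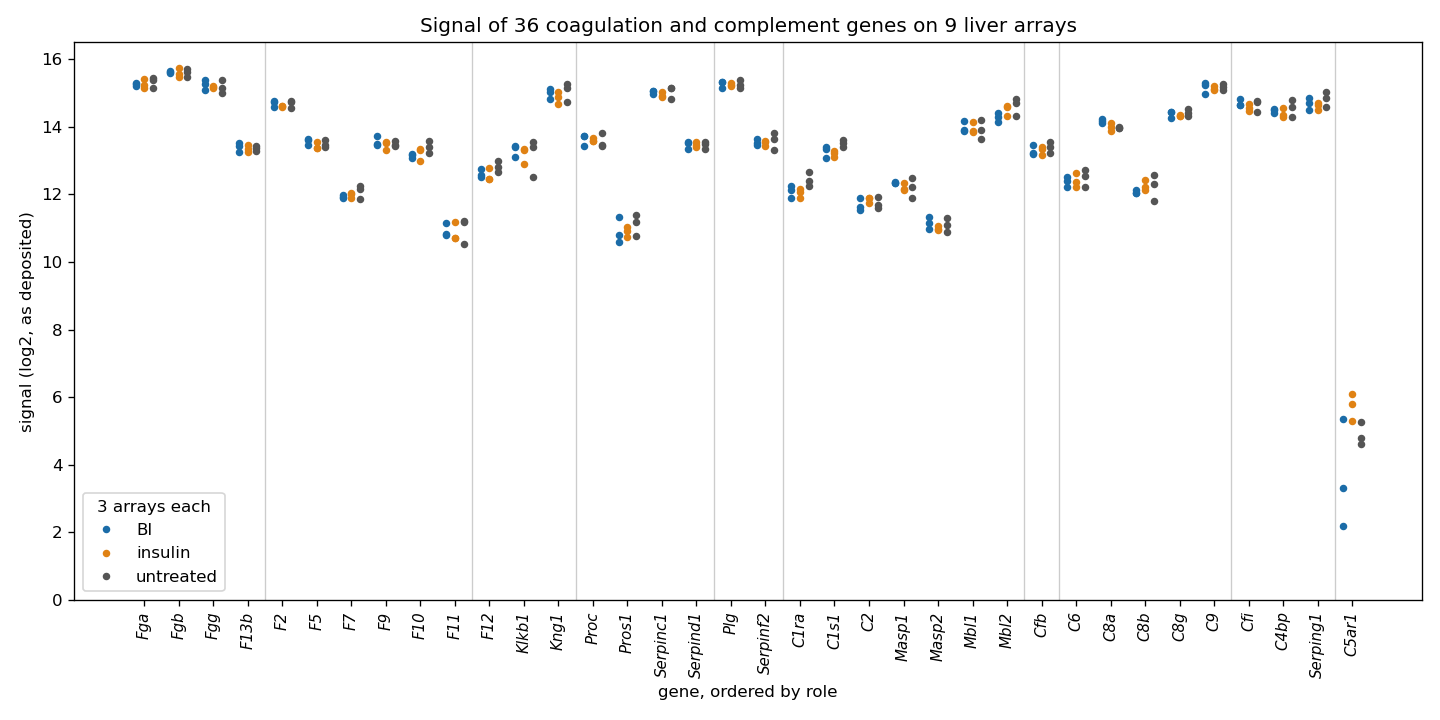
Signal (log2, as deposited) of 36 coagulation and complement genes, ordered by role along the horizontal axis, on 9 liver arrays. Each point is an array, coloured by group, and 35 genes keep their 9 points within a range of 1.03 while C5ar1 spreads over 3.91.

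The test was limma's moderated fit over all 45037 probe sets and 9 arrays, with Benjamini-Hochberg adjustment and a threshold of 0.05. Moderation draws each gene's variance towards a value shared by all probe sets, so genes with little spread get a larger SE than their own arrays give. C8a, with a pooled SD of 0.08 within groups, had an SE of 0.15. Of the 36 genes, 0 passed in BI against untreated livers, where 0.011% of all genes and 0.0111% of all probe sets did, and 0 passed in insulin against untreated livers or in BI against insulin livers, where 0% of all genes did. At an unadjusted p under 0.05 the counts were 0 of 36 in BI against untreated livers (3.9% of all genes), 0 of 36 in insulin against untreated livers (3.87%) and 1 of 36 in BI against insulin livers (3.44%). The 1 gene was C5ar1. Among genes with a mean signal of at least 10, as all 35 others have, the shares were 0.954%, 0.402% and 0.728% in the same comparisons. An F test over the 3 groups together gave 0 of 36 at the adjusted threshold, as for 0% of all genes, and 0 of 36 at an unadjusted p under 0.05, against 3.81%.

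The intervals of single genes show the precision of the fit. The 95% interval of the difference lay wholly within 1.5-fold either way for 24 of 36 genes in BI against untreated livers, for 25 in insulin against untreated livers and for 27 in BI against insulin livers. Within 2-fold, it was 35 of 36 in each comparison, with C5ar1 the exception. These are intervals for single genes, not adjusted for their number. The intervals are drawn in the plot of fitted differences.

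**Figure D2:**
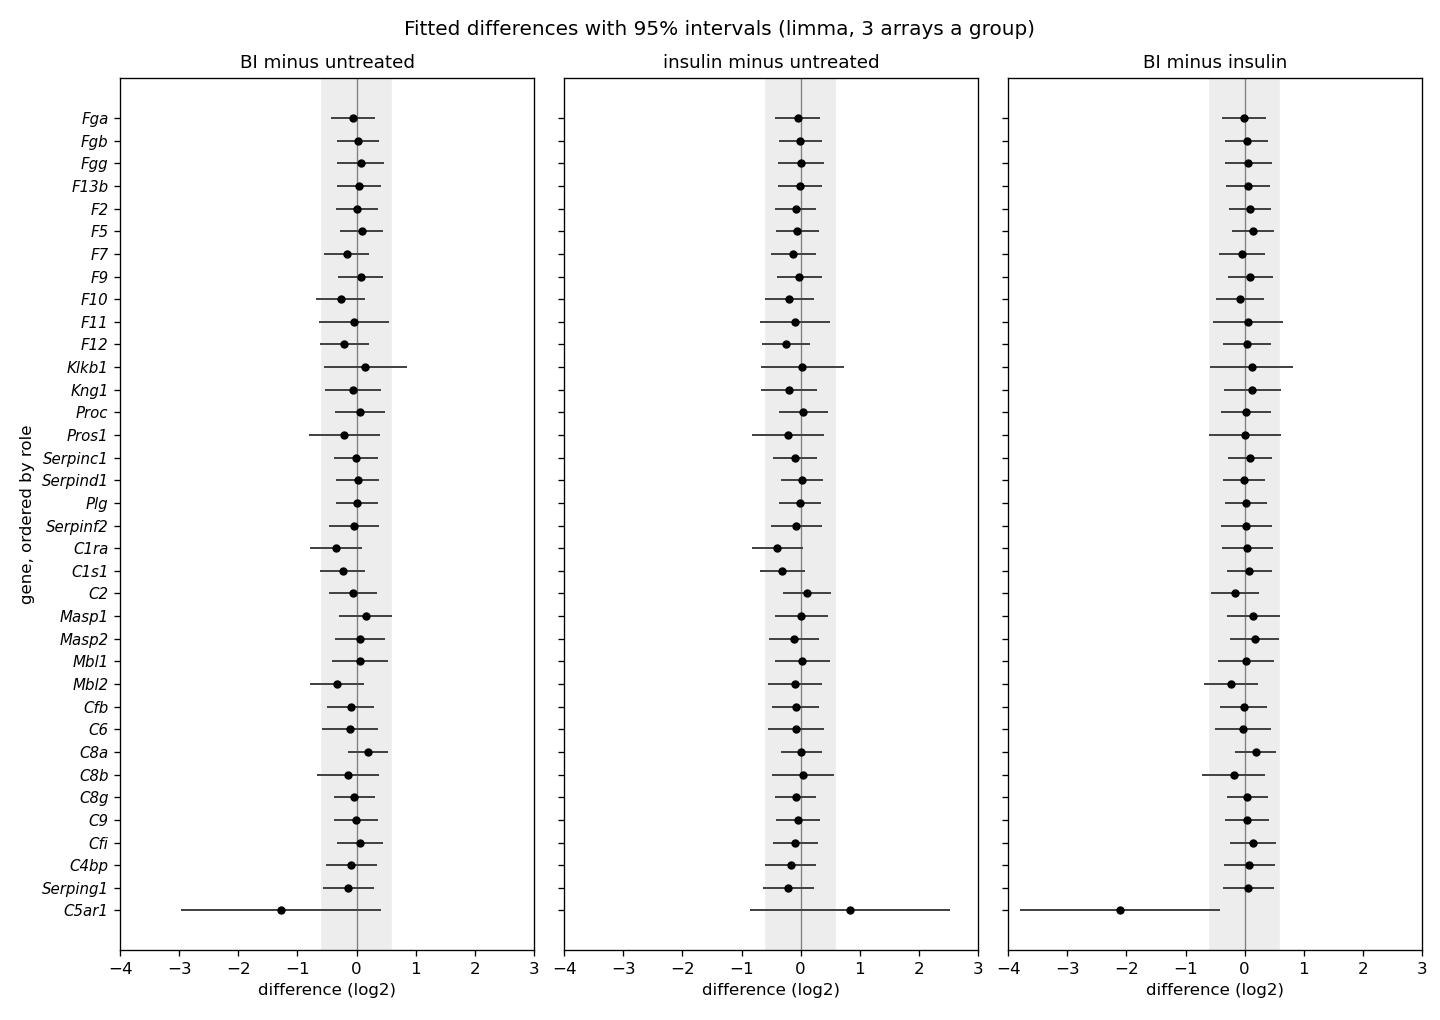
Fitted difference (log2, horizontal axis) of each of 36 genes, ordered by role, with its 95% interval from limma, for BI against untreated, insulin against untreated and BI against insulin livers (3 arrays a group). Every interval but that of C5ar1 in BI against insulin livers crosses 0.

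The differences leaned slightly below 0. The median over the 36 genes was −0.04 in BI against untreated livers, where 21 genes (58.3%) lay below 0 against 49.9% of all genes. It was −0.08 in insulin against untreated livers, where 26 genes (72.2%) lay below 0 against 46.3% of all genes. These comparisons share the untreated arrays. In BI against insulin livers the median was 0.04, with 26 genes above 0 (72.2%) against 45.7% of all genes. With array medians made equal, which shifts every gene alike, 69.4% of members lay below 0 in BI livers and 94.4% in insulin livers, both against untreated, against 54.3% and 54.6% of all genes. The gap between the members' median and that of all genes was −0.04 and −0.10 under both scalings. Such a shift cannot change this gap. Under quantile normalization, which can, it was −0.03 in BI and −0.06 in insulin livers, both against untreated. Without untreated replicate 3 the insulin share, with the scaling as deposited, was 58.3%. The median deviation of the 36 genes from their own means was −0.09, 0.08 and 0.01 on the BI arrays, −0.05, −0.07 and 0.02 on the insulin arrays, and −0.07, 0.09 and 0.12 on the untreated arrays. The groups therefore overlapped.

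Among initiators of complement, the genes of the proteases C1r and C1s had lower values in both injected groups, without passing the test. C1r and C1s form the catalytic part of the C1 complex: C1r activates itself and then C1s, which cleaves C4 and C2. Their genes, C1ra and C1s1, are neighbours on chromosome 6. C1ra measured 12.13, 12.24 and 11.91 in BI livers, 12.17, 12.07 and 11.91 in insulin livers, and 12.24, 12.67 and 12.41 in untreated livers. All 6 injected livers lay below the 3 untreated ones, though the highest BI and the lowest untreated array both round to 12.24. The difference was −0.35 ± 0.19 (SE, n = 3 a group; limma, adjusted p = 0.999) in BI against untreated livers and −0.39 ± 0.19 (limma, adjusted p = 0.9999) in insulin against untreated livers. Without untreated replicate 2, which was the highest array for C1ra, the differences were −0.23 and −0.28.

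C1s1 measured 13.09, 13.35 and 13.40 in BI livers, 13.28, 13.22 and 13.10 in insulin livers, and 13.40, 13.52 and 13.61 in untreated livers. The insulin livers lay clearly below the untreated ones, while the closest BI array, at 13.399, all but touched the lowest untreated array at 13.403. The differences were −0.23 ± 0.16 in BI and −0.31 ± 0.16 in insulin livers against untreated (SE, n = 3 a group; limma, adjusted p = 0.999 and 0.9999). Without BI replicate 1 the BI difference was −0.14. BI and insulin livers differed by 0.05 for C1ra, with an interval from −0.39 to 0.48, and by 0.08 for C1s1, with an interval from −0.30 to 0.46. A further probe set shared by C1ra and its near copy C1rb gave −0.20 in BI and 0.21 in insulin livers, so it did not repeat the C1ra pattern. The C1s1 probe set is of the kind that can match several related transcripts, so a related copy may share its signal.

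The promoters of C1ra and C1s1 are shown because these neighbours lay low together. They run from 250 bases before to 50 after the start of the transcript in RefSeq, build GRCm38.p6, with C1ra at chr6:124512371-124512670 on the plus strand and C1s1 at chr6:124542310-124542609 on the minus strand. C1s1 has 2 starts in the table, and the first is shown. Capitals mark matches, on either strand, to the C/EBP motif TTGCNNAA and the interleukin-6 response motif CTGGGAA.
C1ra: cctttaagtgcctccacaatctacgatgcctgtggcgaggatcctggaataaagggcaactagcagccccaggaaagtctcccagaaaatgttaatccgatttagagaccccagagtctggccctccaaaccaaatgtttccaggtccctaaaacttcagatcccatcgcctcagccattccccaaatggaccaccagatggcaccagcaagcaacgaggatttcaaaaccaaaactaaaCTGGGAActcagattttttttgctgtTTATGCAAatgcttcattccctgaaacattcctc
C1s1: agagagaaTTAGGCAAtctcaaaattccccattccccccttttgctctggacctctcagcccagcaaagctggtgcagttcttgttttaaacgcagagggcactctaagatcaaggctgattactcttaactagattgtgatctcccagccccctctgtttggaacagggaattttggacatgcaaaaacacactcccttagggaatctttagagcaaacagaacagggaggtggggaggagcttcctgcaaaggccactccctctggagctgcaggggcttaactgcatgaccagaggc
C1ra holds 1 match to each motif and C1s1 holds 1 C/EBP match. A C/EBP match was found in 9 of 30 promoters of these genes (30%), which cover 28 of the 36, against 10.8% of all 32851 mouse promoters in the table. The interleukin-6 motif was found in 6 of 30 (20%) against 11.1%. The motif of HNF1, a factor of hepatocyte genes, was in 2 of 30 (6.67%), those of C4bp and F13b, against 0.399%, and that of HNF4, CAAAGTCC, was in 0 of 30 against 1.42%. A match describes the letters only.

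In the lectin arm, Mbl2, a mannose-binding lectin that recognises sugars on microbes, averaged 14.29 ± 0.13 in BI livers, 14.52 ± 0.16 in insulin livers and 14.62 ± 0.26 in untreated livers (SD, n = 3 each). Its difference of −0.33 ± 0.19 in BI against untreated livers (SE; limma, adjusted p = 0.999) came with overlapping arrays. Mbl1, the second mouse lectin of this kind, averaged 13.99 ± 0.16, 13.96 ± 0.16 and 13.93 ± 0.28 in BI, insulin and untreated livers. The lectin-associated proteases showed differences of 0.15 for Masp1 and 0.05 for Masp2 in BI against untreated livers, and 0.01 and −0.11 in insulin against untreated livers. The 4 dimmer probe sets of Masp1 gave 0.05, 0.01, 0.15 and −0.13 in BI and 0.08, 0.25, 0.25 and −0.66 in insulin livers against untreated, so they did not share a direction. In 1 of the 4 the BI arrays lay below the insulin arrays, at −0.24. A dimmer second probe set of Masp2 read 10.96, 10.98 and 10.83 in BI livers, 10.83, 10.80 and 10.83 in insulin livers, and 11.16, 11.55 and 10.97 in untreated livers, a difference of −0.30 in BI and −0.40 in insulin livers. The 2 Masp2 probe sets thus disagreed in BI livers and differed in size in insulin livers. C2, the serine protease of the classical convertase, differed by −0.06 in BI and 0.10 in insulin livers against untreated. Its other 2 probe sets gave −0.20 and −0.24 in BI and −0.03 and −0.08 in insulin livers, all with overlapping arrays.

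C4a and C4b share 1 probe set, so neither can be named alone. It read 14.50, 14.67 and 14.51 in BI livers, 14.49, 14.30 and 14.45 in insulin livers, and 14.52, 14.60 and 14.59 in untreated livers. The insulin arrays lay below all the others. The difference was −0.01 ± 0.15 in BI and −0.16 ± 0.15 in insulin livers against untreated, and 0.15 ± 0.15 in BI against insulin livers (SE, n = 3 a group; limma, lowest adjusted p = 0.999).

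Cfb, the protease of the alternative pathway, measured 13.23, 13.45 and 13.19 in BI livers, 13.18, 13.34 and 13.41 in insulin livers, and 13.39, 13.56 and 13.23 in untreated livers. The 3 groups overlapped, and the differences were −0.10 and −0.08 ± 0.17 in BI and insulin livers against untreated. Cfb sits beside C2 on chromosome 17.

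The pore components C6, C8 and C9 had no shared direction. C8a, the alpha chain of C8, read 14.11, 14.17 and 14.24 in BI livers, 13.99, 13.87 and 14.10 in insulin livers, and 13.96, 13.96 and 14.01 in untreated livers. Every BI array was above every other array, and the difference was 0.20 ± 0.15 against untreated and 0.19 ± 0.15 against insulin livers (SE; limma, adjusted p = 0.999 and 0.9999). Its neighbour on chromosome 4, C8b, encoding the beta chain, differed by −0.15 in BI against untreated livers and −0.19 in BI against insulin livers. C8g, the gamma chain, differed by −0.04 and C9, which forms most of the pore ring, by −0.01 in BI against untreated livers. C6 averaged 12.38 ± 0.16, 12.41 ± 0.21 and 12.49 ± 0.25 in BI, insulin and untreated livers.

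The 3 complement inhibitors overlapped between groups. Serping1, the inhibitor of C1r, C1s and kallikrein, had the largest difference among them and measured 14.70, 14.85 and 14.50 in BI livers, 14.65, 14.51 and 14.69 in insulin livers, and 14.58, 15.03 and 14.86 in untreated livers. Its differences were −0.14 ± 0.19 in BI and −0.21 ± 0.19 in insulin livers against untreated. C4bp, which helps break down C4b, differed by −0.09 and −0.17, and Cfi, the protease that cleaves C3b and C4b, by 0.05 and −0.09 in BI and insulin livers against untreated.

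C5ar1 encodes the receptor for the inflammatory fragment C5a and is known chiefly from myeloid cells. It measured 5.34, 3.31 and 2.19 in BI livers, 5.29, 6.09 and 5.79 in insulin livers, and 4.78, 5.26 and 4.63 in untreated livers, each below the median signal of its array. The BI livers spread over a wider range than that between the group means, and BI replicate 1 lay among the insulin values. The difference in BI against insulin livers was −2.11 ± 0.72 with an interval from −3.80 to −0.42 (limma, unadjusted p = 0.0207, adjusted p = 0.9999). Without BI replicate 3 it was −1.40, with the mean of both C5ar1 probe sets −0.70, and with values below 6 set to 6 it was −0.03. The insulin livers lay above the untreated ones, by 0.83 ± 0.72. A second C5ar1 probe set, dimmer still, differed by 0.71 the other way in BI against insulin livers, and with signals this low the background is not known.

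Group means of markers of Kupffer cells and macrophages, and of endothelium, were also lower in BI than in insulin livers, with 0 of them past the test. For macrophages this did not hold on every array, since BI replicate 1 had the highest median marker deviation of the 9 arrays. The summed signal of all 12 markers listed was 13.96 to 14.91 on BI arrays, 14.21 to 14.76 on insulin arrays and 13.96 to 14.78 on untreated arrays on the log2 scale, and none was at 0. Each of the 12 lay below 0 in BI against insulin livers, with a median of −0.29, where 54.3% of all genes lay below 0. An unadjusted p under 0.05 (limma) was found for 0 of 12, against 3.44% of all genes. The median marker deviation was 0.37, −0.29 and −0.44 on the BI arrays, the order in which C5ar1 stood. It was −0.10, 0.19 and 0.35 on the insulin arrays and −0.39, 0.34 and −0.06 on the untreated arrays, where the order differed from that of C5ar1. Sinusoidal endothelial markers went the same way: all 10 lay below 0 in BI against insulin livers, with a median of −0.35, and their median deviation was 0.05, −0.29 and −0.39 on the BI arrays. Their summed signal was 12.61 to 13.08 on BI arrays, 13.08 to 13.42 on insulin arrays and 12.71 to 13.25 on untreated arrays, with none at 0. The 9 measured neutrophil markers (of 10 listed) summed to 10.36 to 11.59 on BI arrays, 10.84 to 12.17 on insulin arrays and 10.76 to 13.30 on untreated arrays, with none at 0. The median deviation of the neutrophil markers was −0.41, 0.13 and −0.16 on the BI arrays, not the order of C5ar1. The part of these cell types in the C5ar1 result was not tested.

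**Figure D3:**
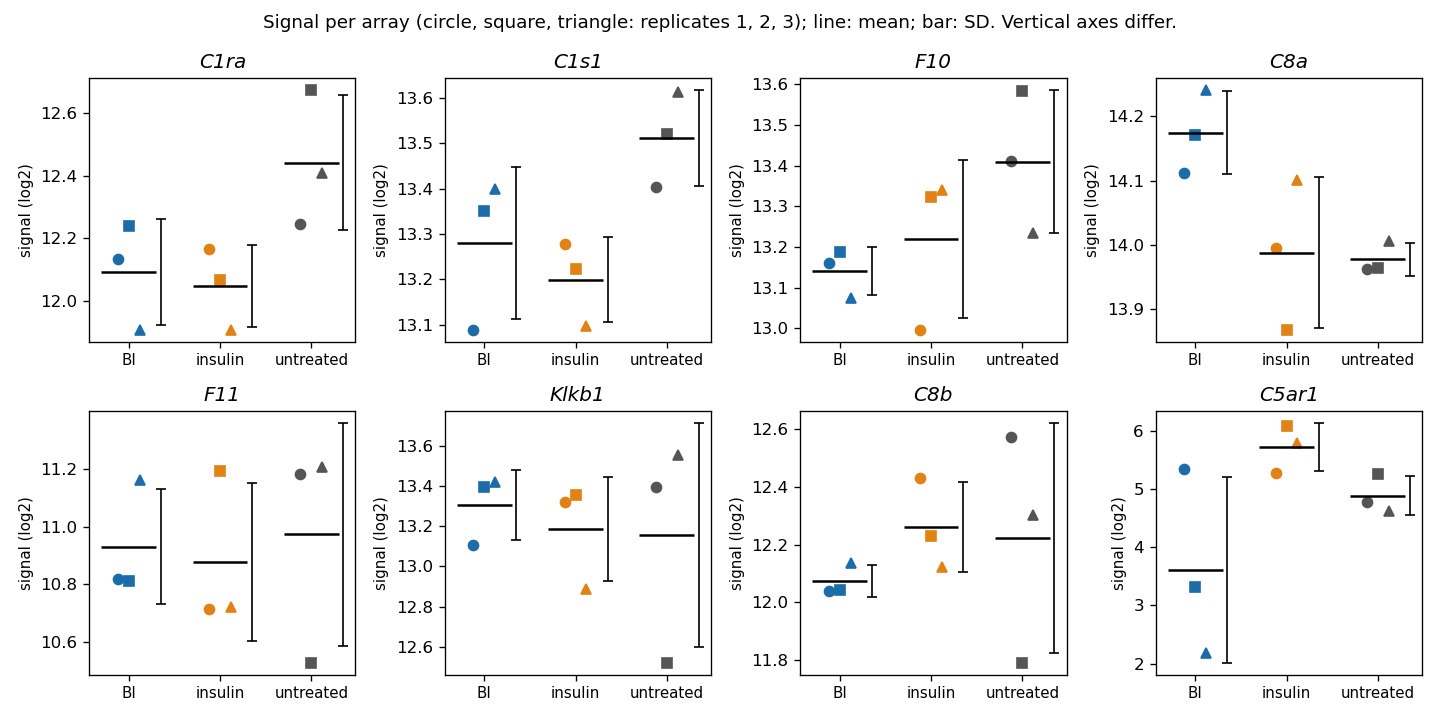
Signal (log2) of single genes on each array, by group, with circle, square and triangle for replicates 1, 2 and 3, a line for the mean and a bar for the SD (vertical axes differ between panels). C1ra and C1s1 lie lowest in the injected groups, C8a highest in BI livers, and C5ar1 spreads from 2.19 to 5.34 within BI livers.

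Fibrinogen genes showed small fitted differences, with intervals that span 0. Fgg, the gamma chain, had the largest difference of the fibrin class and measured 15.10, 15.27 and 15.38 in BI livers, 15.18, 15.22 and 15.15 in insulin livers, and 15.01, 15.14 and 15.39 in untreated livers. Its difference was 0.07 ± 0.17 in BI and 0.00 ± 0.17 in insulin livers against untreated. The 95% intervals ran from −0.32 to 0.46 and from −0.39 to 0.40. Fga, Fgb and Fgg lie side by side on chromosome 3, and the Fga and Fgb differences lay between −0.06 and 0.03 in both comparisons with untreated livers. F13b, the carrier subunit of the enzyme that crosslinks fibrin, differed by 0.04 and −0.01.

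Among the procoagulant factors, F10 showed the largest difference. Factor X, made active by the upstream factors, converts prothrombin to thrombin. F10 measured 13.16, 13.19 and 13.07 in BI livers, 12.997, 13.32 and 13.34 in insulin livers, and 13.41, 13.58 and 13.23 in untreated livers. The BI arrays lay below the untreated ones and the insulin arrays overlapped them, with differences of −0.27 ± 0.18 and −0.19 ± 0.18 (SE, n = 3 a group; limma, adjusted p = 0.999 and 0.9999). Its other 2 probe sets differed by −0.06 and −0.17 in BI and by 0.04 and 0.07 in insulin livers. F7, next to F10 on chromosome 8 and the partner of tissue factor, differed by −0.17 and −0.12. F2, which encodes prothrombin, averaged 14.70 ± 0.10, 14.60 ± 0.02 and 14.69 ± 0.12 in BI, insulin and untreated livers (SD, n = 3 each). The cofactor F5 differed by 0.08 and −0.06, while its second probe set gave −0.03 and −0.30, with all insulin arrays below the untreated ones. F9, the protease lacking in haemophilia B, differed by 0.07 and −0.02.

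F12 led the contact class. Factor XII starts the intrinsic pathway by cleaving prekallikrein and factor XI. It measured 12.52, 12.75 and 12.57 in BI livers, 12.79, 12.47 and 12.46 in insulin livers, and 12.68, 12.80 and 12.98 in untreated livers. The groups overlapped, at −0.21 ± 0.18 in BI and −0.25 ± 0.18 in insulin livers against untreated (SE; limma, adjusted p = 0.999 and 0.9999). Kng1, the source of bradykinin, differed by −0.06 and −0.19.

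The anticoagulants also overlapped. Pros1, protein S, the cofactor of activated protein C, measured 10.79, 11.33 and 10.59 in BI livers, 10.75, 10.91 and 11.03 in insulin livers, and 10.76, 11.40 and 11.18 in untreated livers. Its differences were −0.21 and −0.22 ± 0.26. Without 1 array they ran from −0.42 (without BI replicate 2) to −0.05 (without BI replicate 3) in BI livers, and from −0.39 (without untreated replicate 1) to −0.07 (without untreated replicate 2) in insulin livers. Proc, the gene of protein C itself, differed by 0.06 and 0.05, Serpinc1, antithrombin, by −0.01 and −0.10, and Serpind1, heparin cofactor II, by 0.02 and 0.02 in BI and insulin livers against untreated.

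In fibrinolysis, Serpinf2, which encodes the plasmin inhibitor alpha-2-antiplasmin, measured 13.65, 13.53 and 13.45 in BI livers, 13.55, 13.43 and 13.58 in insulin livers, and 13.83, 13.64 and 13.30 in untreated livers. Its differences were −0.05 and −0.07 ± 0.18. Plg, plasminogen, differed by 0.01 and −0.01.

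Groups without any overlap were counted beside the share over all genes. In BI against untreated livers they were 4 of 36 (11.1%), with C8a higher and C1ra, C1s1 and F10 lower, against 9.36% of all genes (4.84% higher and 4.52% lower). In insulin against untreated livers they were 3 of 36 (8.33%), with C5ar1 higher and C1ra and C1s1 lower, against 9.23% (5.74% higher and 3.48% lower). In BI against insulin livers it was 1 of 36 (2.78%), C8a, higher, against 9.88% (4.2% higher).

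The spread within groups was widest in untreated livers. The median SD over the 36 genes was 0.14 in BI livers, 0.12 in insulin livers and 0.19 in untreated livers, and the largest SD was in BI for 9 genes, in insulin for 4 and in untreated livers for 23 (63.9%). Among the 3984 genes with a mean signal of at least 10, it was in untreated livers for 49.6%. The highest of the 9 arrays was an untreated one for 25 of 36 genes (69.4%), against 42.2% of those 3984 genes. The lowest array was an untreated one for 16 of 36 (44.4%), against 45.2%. For the 16 acute phase genes listed, an untreated array was the highest for 11 (68.8%) and the lowest for 6 (37.5%), so the high share was not particular to the members. Untreated replicate 2 was the extreme array for 17 of 36 genes (47.2%, against 35.4% of those 3984 genes). It was the highest for C1ra, C2, C4bp, Cfb, F10, Fga, Kng1, Mbl1, Mbl2, Pros1 and Serping1, and the lowest for C8b, F11, Klkb1, Masp1, Masp2 and Serpind1. The heat map of deviations shows both sets in that column.

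**Figure D4:**
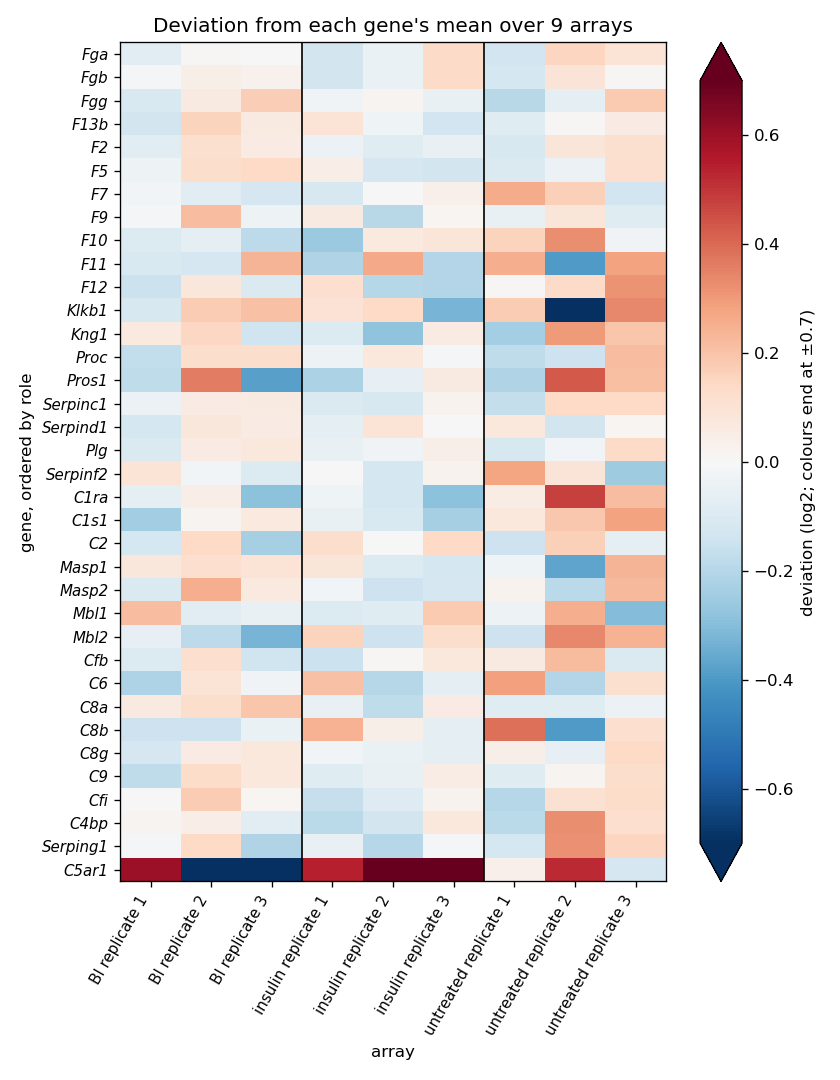
Deviation of each gene's signal (log2, colour, ending at ±0.7) from its own mean over 9 arrays, with genes down the page by role and arrays across by group. Untreated replicate 2 has low values for Klkb1, C8b and F11 beside high values for other genes, and C5ar1 runs past the low end of the colours on BI replicates 2 and 3.

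Klkb1, F11 and C8b, picked after their values were seen, show the low side. Klkb1, prekallikrein, measured 13.11, 13.39 and 13.42 in BI livers, 13.32, 13.35 and 12.89 in insulin livers, and 13.39, 12.52 and 13.55 in untreated livers. F11, factor XI, measured 10.82, 10.81 and 11.16 in BI livers, 10.71, 11.19 and 10.72 in insulin livers, and 11.18, 10.53 and 11.21 in untreated livers. C8b measured 12.04, 12.04 and 12.14 in BI livers, 12.43, 12.23 and 12.12 in insulin livers, and 12.57, 11.79 and 12.30 in untreated livers. In each, 1 untreated array was the lowest of all 9 while another untreated array was the highest. Without untreated replicate 2 the differences in BI and insulin livers against untreated were −0.17 and −0.29 for Klkb1, −0.26 and −0.32 for F11, and −0.37 and −0.18 for C8b. With all arrays they were 0.15 and 0.03, −0.04 and −0.10, and −0.15 and 0.04. The sign of Klkb1 in both comparisons and of C8b in insulin livers thus turned without that array. In insulin livers it also turned for Klkb1 without insulin replicate 1 (−0.04) or 2 (−0.05), for C8b without insulin replicate 1 (−0.05), and for both with equal array medians (−0.02 each). F11 and C8b also changed sign in BI against untreated livers without other single arrays, over −0.26 to 0.08 and −0.37 to 0.03.

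F11 and Klkb1 are neighbours on chromosome 8, and their promoters are shown because both were lowest on the same array. They stand at chr8:45261982-45262281 and chr8:45294786-45295085, both on the minus strand, in RefSeq, build GRCm38.p6. Capitals mark matches to the C/EBP motif TTGCNNAA and, in Klkb1, to the TATA box TATAAA, all on the strand opposite to that printed.
F11: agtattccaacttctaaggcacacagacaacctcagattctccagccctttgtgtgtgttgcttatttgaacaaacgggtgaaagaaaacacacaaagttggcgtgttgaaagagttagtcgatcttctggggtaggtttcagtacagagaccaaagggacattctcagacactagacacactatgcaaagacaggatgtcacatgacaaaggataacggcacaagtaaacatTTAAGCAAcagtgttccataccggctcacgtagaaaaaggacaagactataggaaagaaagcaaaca
Klkb1: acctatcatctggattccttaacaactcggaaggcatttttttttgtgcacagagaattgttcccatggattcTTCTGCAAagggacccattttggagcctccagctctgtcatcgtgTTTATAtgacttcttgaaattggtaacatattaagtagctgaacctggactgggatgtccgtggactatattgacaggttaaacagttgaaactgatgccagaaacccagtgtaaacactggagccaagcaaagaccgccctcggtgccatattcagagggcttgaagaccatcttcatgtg
Each holds 1 C/EBP match. The TATA letters were in 1 of 30 promoters of these genes (3.33%), that of Klkb1, against 13.6% of all promoters.

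Some acute phase genes were high on the same untreated array. Saa3, a serum amyloid A gene, read 11.44, 11.80 and 10.16 in BI livers, 10.80, 11.56 and 12.14 in insulin livers, and 11.47, 14.27 and 11.28 in untreated livers. Untreated replicate 2 was the highest of the 9 arrays for 9 of the 16 acute phase genes (56.2%), against 16.2% of genes with a mean signal of at least 10, and the lowest for 2, Hp (14.73) and Crp (14.05). Lcn2, lipocalin 2, was 15.24 on it, and the neutrophil protein gene S100a8 12.74, each its highest array. The neutrophil markers' highest sum, 13.30, was in the untreated group. The part of these in the members' spread was not tested.

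Other genes of the pathways gave few low p-values, in lists chosen with earlier results known and with no gene passing the adjusted test (limma). Of 23 measured of 26 further coagulation genes, 0 in BI against untreated livers, 1 in insulin against untreated livers and 0 in BI against insulin livers had an unadjusted p under 0.05. Among all genes the shares were 3.9%, 3.87% and 3.44% in these comparisons, and they stand beside the counts of the further lists too. The list's median difference was −0.22 in BI and −0.06 in insulin livers against untreated, where that of all genes was 0.00 and 0.02. Below 0 lay 19 (82.6%) and 15 (65.2%) of 23, against 49.9% and 46.3% of all genes. The 1 gene with an unadjusted p under 0.05 was Serpina5, the protein C inhibitor, at 5.94, 5.11 and 6.44 in BI livers, 5.14, 5.25 and 4.36 in insulin livers, and 5.72, 6.15 and 6.52 in untreated livers, a difference of −1.22 ± 0.41 in insulin against untreated livers (limma, adjusted p = 0.9999). Of 18 measured of 26 further complement genes, with medians of −0.02 in BI and 0.07 in insulin livers against untreated, 0 did in any comparison, and the smallest p belonged to Cr2, a complement receptor of B cells (−1.54 ± 0.80 in BI against untreated livers), and Cd55, which breaks up convertases (−0.52 ± 0.28 in BI against insulin livers). Of the 8 genes of the vitamin K cycle and factor secretion, with medians of 0.04 and −0.01 against untreated, 1 did in BI against insulin livers. Pdia4, a disulfide isomerase of the endoplasmic reticulum, was at 11.75, 11.84 and 11.76 in BI livers, 11.21, 11.36 and 11.47 in insulin livers, and 11.42, 11.66 and 11.50 in untreated livers. Its difference of 0.44 ± 0.16 in BI against insulin livers had an adjusted p of 0.9999 (limma).

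Of 10 measured of 11 hepatocyte regulators, with medians of −0.16 in BI and −0.04 in insulin livers against untreated, 0 had an unadjusted p under 0.05 in any comparison. The smallest belonged to Cebpb, a C/EBP factor of the acute phase, at −0.47 ± 0.23, and Il6st, the signalling chain of the interleukin-6 receptor, at −1.17 ± 0.65, both in BI against untreated livers. The regulators' median deviation was 0.03, 0.15 and −0.48 on the BI arrays, so it was low on 1 of them. BI replicate 3 was the lowest of the 9 arrays for 5 of the 10 regulators. Of the 16 acute phase genes, with medians of −0.01 and −0.10, 0 had an unadjusted p under 0.05 in any comparison, with Saa3 at −1.21 ± 0.86 in BI and Lcn2 at −0.55 ± 0.39 in insulin livers against untreated. Of the 8 measured platelet markers of 9 listed, which bear on clotting but are not made by hepatocytes, Itgb3 and Pf4 had an unadjusted p under 0.05 in BI against untreated livers. That was 2 of 8, against 3.9% of all genes. The list's median there was −0.42, with 6 below 0 and 2 above. The summed signal overlapped: 10.31 to 10.82 on BI arrays, 10.61 to 10.97 on insulin arrays and 10.28 to 11.21 on untreated arrays. Pf4, platelet factor 4, read 8.05, 8.24 and 8.23 in BI livers, 8.38, 8.56 and 8.69 in insulin livers, and 8.26, 9.38 and 9.05 in untreated livers, a difference of −0.72 ± 0.29 in BI against untreated livers (limma, adjusted p = 0.999). Itgb3 differed by −2.69 ± 0.60 (limma, adjusted p = 0.711), at a signal of 1.69 to 2.81 in BI livers and 3.94 to 5.24 in untreated livers. In BI against insulin livers Itgb3 differed by −1.73 ± 0.60. In the other marker lists an unadjusted p under 0.05 was found for the hepatocyte enzyme gene Tat (−0.51 ± 0.19 in BI against untreated livers), the neutrophil protease gene Mmp9 (2.02 ± 0.75 in insulin against untreated livers) and the red cell gene Slc4a1 (−0.97 ± 0.41 in insulin against untreated livers), and for 0 of 10 endothelial markers. Other genes of these lists went the other way. In the same comparisons the hepatocyte list had a median of 0.00, with 5 of 9 above 0. The neutrophil list had a median of −0.04, with 5 of 9 below 0. The red cell list, with 3 of 8 genes measured, had a median of −0.30, with 1 above 0. Among all genes such a p was found for 3.9% in BI and 3.87% in insulin livers against untreated.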

How the data were processed

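The deposited values are log2 signals of 45101 probe sets on 9 arrays, made by the authors with software not given in the sources used here. On each array the trimmed mean of the linear signals was 500.004, so the arrays had been scaled to 1 value before deposit. Per the labels' protocols, RNA was amplified and biotin-labelled for 3′ arrays. No further normalization was applied. After removal of 64 control probe sets, 45037 entered limma 3.58.1 (R 4.3.3) with lmFit and eBayes, all groups in 1 fit. Tables were made in Python 3.11.15. The annotation named 1 gene for 34945 probe sets, several for 932, and 9160 are unnamed here.

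Members and lists were chosen with earlier results of these data known. Values on every array were given for members past the threshold, with an unadjusted p under 0.05, with groups that do not overlap against untreated and a difference of at least 0.3, or with the largest difference of their role. In other lists, genes with an unadjusted p under 0.05 were named, or else the 2 of smallest p. Alternatives covered scaling, filtering, moderation, array weights, probe set choice, a floor, a replicate block and leaving out each array. Precision is limited by the number of arrays and, for genes with little spread, by the shared variance of the moderated fit. The fit was tried on simulated data with known changes, set far larger than the differences of the members other than C5ar1. That trial does not bear on differences as small as theirs.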

Additional observations from a re-analysis of the deposited data

How the results depend on the processing

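Of the members tested, 0 passed the adjusted test (limma) in the 3 comparisons under 19 alternatives and in the F test under the 18 that apply to it. These include 1 chosen after seeing the data, without probe sets of shared sequence, which left out C1s1. The alternative without probe sets below the median level left out C5ar1. Each of these 2 genes was therefore tested under 18 alternatives in the 3 comparisons. The median member difference ranged from −0.07 to −0.02 in BI against untreated livers and from −0.13 to −0.05 in insulin against untreated livers. Leaving out 1 array gave −0.05 to 0.00 and −0.08 to −0.03. The unadjusted counts were at most 5 and 2, under trended robust moderation (C1ra, Mbl2, C1s1, C8a and F10 in BI, C1ra and C1s1 in insulin livers). Over all probe sets, the 5 calls in BI against untreated livers became 0 to 6 under the alternatives and 0 to 2 without 1 array. Quantile normalization put 44.4% of members below 0 in BI against insulin livers, against 27.8% as deposited (all genes 53.8% and 54.3%). Without BI replicate 2, 75% of members lay below 0 in BI against untreated livers and 50% in BI against insulin livers. Without insulin replicate 1 the share in BI against insulin livers was 38.9%. Replicate numbers did not pair the arrays: deviations of same-numbered arrays correlated between −0.03 and 0.04. With the replicate block, 0 of 36 genes and 0 probe sets were called in BI against untreated livers. With 3 arrays a group and the moderation of the main fit, differences of single genes under about 1.5-fold could not be told from 0 for many of them.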
